A study of Homo sapiens with 8 samples.

Results

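NRF2, encoded by NFE2L2, its inhibitor KEAP1 and the classical NRF2 target genes NQO1, HMOX1, TXNRD1, SRXN1, GCLC, GCLM, OSGIN1 and TXN were followed in the mRNA of human keratinocytes. The 10 genes were chosen by symbol, as the transcription factor, its inhibitor and well-known targets, from the 61806 genes of the deposited table. The cells were wild-type N/TERT-1 (N/TERT) cells, an immortalized line of epidermal keratinocytes grown in keratinocyte serum-free medium, so that every library came from 1 line. Of 8 libraries of oligo(dT)-selected mRNA, 4 were from cells given ethanol, the vehicle control, and 4 from cells given oligomycin and antimycin A together (O/A). Oligomycin blocks the mitochondrial ATP synthase and antimycin A blocks respiratory complex III, and the pair is used to depolarize mitochondria and set off their removal by mitophagy. The exposure was 4 hours. The labels of the libraries give no dose, and in imaging of the same cells O/A meant 10 µM oligomycin with 4 µM antimycin A. The comparison asks which transcripts of the NRF2 system differed after O/A.

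The libraries held 17210404 to 20999927 counted reads in ethanol and 17689760 to 19263046 in O/A. All 6 keratinocyte markers fixed for a check of the label (KRT5, KRT14, TP63, ITGB4, COL17A1 and LAMB3) were present, with a summed level of 12060 to 12780 CPM (counts scaled to library size) in ethanol and 10960 to 11450 in O/A. Of 16 markers of fibroblasts, melanocytes, immune and endothelial cells, 3 (COL1A1, PMEL and CD68) reached the minimum of 10 counts, and the melanocyte markers MLANA and TYR were at 0 in every library. Summed over each whole list, the CPM in ethanol against O/A was 21.6 to 26.7 against 21.7 to 23.8 for fibroblasts, 1.197 to 2.333 against 1.074 to 2.498 for melanocytes, 0.871 to 1.34 against 1.40 to 1.92 for immune cells and 0.291 to 0.524 against 0.169 to 0.425 for endothelial cells. The summed CPM of the differentiated keratinocyte markers was 42.0 to 46.0 in ethanol and 44.8 to 47.6 in O/A, with KRT1 and LORICRIN at 0. The part of these small differences in the results was not tested. In bulk mRNA, fewer cells of a type and less RNA per cell cannot be told apart.

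NRF2 is a basic leucine zipper transcription factor of the CNC family. In resting cells KEAP1 holds it for ubiquitination by a CUL3 ligase and the proteasome degrades it, and oxidants or electrophiles that modify cysteines of KEAP1 let newly made NRF2 reach the nucleus. There it binds with a small MAF protein to the antioxidant response element, and its targets make glutathione and thioredoxin systems, quinone reductases and haem-degrading enzymes. NRF2 activity is thus set largely at the level of protein, which was not measured here.

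Because the element is read from DNA, the members' promoters were searched for its core, TGACNNNGC, in which N is any base, on both strands, from 250 bases before to 50 bases after each start site in RefSeq (GRCh38.p14). Of 9 members with a window, 3 held a match, GCLM, TXNRD1 and KEAP1, in 4 of the 12 windows of the 9 members. Over all genes 16.1% of 27305 held a match, and 13.3% of 35116 windows. The stretches that hold the 6 matches, from 120 bases before to 10 bases after each start, are shown 5′ to 3′ on the strand of the gene so that the positions and the letters of the matches can be compared. Capitals mark the 9 letters of a match. Where a match lies on the opposite strand, its letters begin with GC and end with GTCA.
GCLM, chr1:93909421-93909550, minus strand: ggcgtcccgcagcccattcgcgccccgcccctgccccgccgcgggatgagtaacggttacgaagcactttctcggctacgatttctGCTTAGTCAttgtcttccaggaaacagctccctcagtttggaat
TXNRD1, upstream start, chr12:104215659-104215788, plus strand: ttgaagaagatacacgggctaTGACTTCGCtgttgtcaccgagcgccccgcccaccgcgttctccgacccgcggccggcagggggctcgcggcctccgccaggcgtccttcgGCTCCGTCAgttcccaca
TXNRD1, downstream start, chr12:104286912-104287041, plus strand: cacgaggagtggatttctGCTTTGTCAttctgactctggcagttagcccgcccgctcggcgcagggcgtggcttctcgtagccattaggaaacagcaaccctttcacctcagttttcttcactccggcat
KEAP1, chr19:10502762-10502891, minus strand: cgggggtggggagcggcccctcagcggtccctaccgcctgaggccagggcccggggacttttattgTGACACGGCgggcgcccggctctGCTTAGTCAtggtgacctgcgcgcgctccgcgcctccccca
The match of GCLM and the second match of KEAP1 have the same 9 letters, TGACTAAGC when read as the core, and lie at -34 to -26 and -31 to -23 from their start sites. Both matches of KEAP1 lie in the window of its downstream start, and the window of its upstream start holds none. The matches of TXNRD1 lie at -99 to -91 and -8 to 1 from the upstream start and at -102 to -94 from the downstream start. A match is a description of these windows and not a binding site. For NFE2L2, NQO1, GCLC, OSGIN1, SRXN1 and TXN the letters of the core are not in the windows searched.

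After O/A, the transcripts of NRF2 itself, of TXNRD1 and of OSGIN1 were close to double their ethanol level, those of HMOX1 and SRXN1 rose less, and that of KEAP1 fell. NQO1, GCLC and GCLM, which are among the most used readouts of NRF2, were higher by less than the fold change threshold, and TXN did not pass the test. In the quasi-likelihood test of edgeR, with p adjusted by Benjamini-Hochberg over all 14893 genes tested, 5 of the 10 genes were upregulated and 1 was downregulated, at an adjusted p of at most 0.05 and an absolute log2(FC) above 0.25. Over all genes tested, 15.8% were upregulated and 18.9% downregulated by these thresholds (34.7% in all). By the adjusted p alone 8 members were higher and 1 was lower, against 26.0% and 27.7% of all genes (53.7% in all). The O/A libraries lay above all ethanol libraries for 7 members and below them for 1, against 22.8% and 24.8% of all genes (47.6% in all). The median log2(FC) was 0.32 over the 10 genes, with a range of -0.35 to 0.99, and -0.0004 over all genes tested. All 10 had enough counts to be tested. They were chosen with earlier results of these data known, so these shares are not an independent comparison with all genes.

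**Figure D1:**
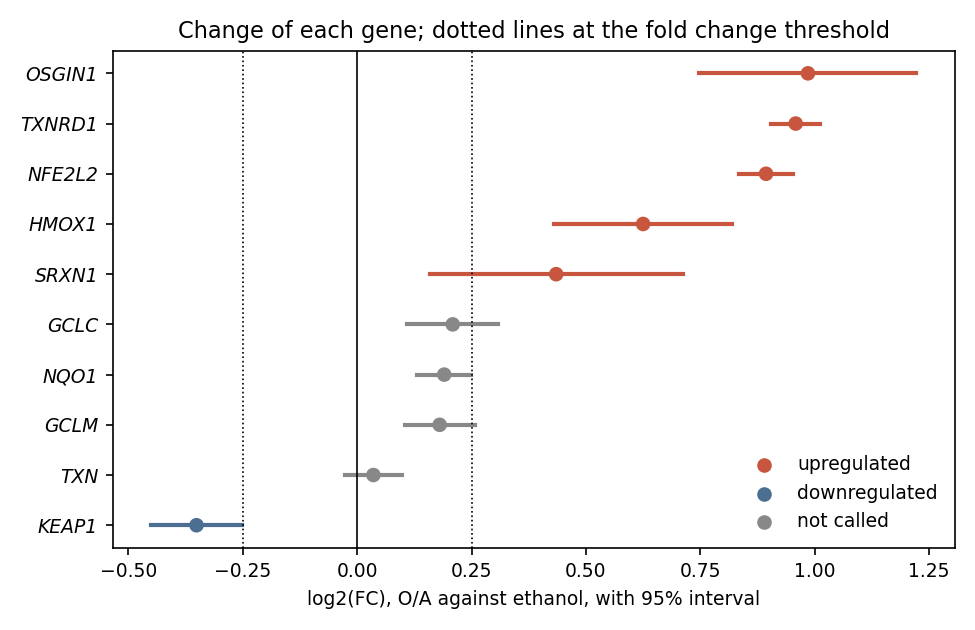
Change of the 10 genes as log2(FC), O/A against ethanol (horizontal axis), with the 95% interval of the edgeR fit as a line, coloured by whether the gene was called, and dotted lines at the threshold of 0.25 in either direction. OSGIN1, TXNRD1 and NFE2L2 lie between 0.89 and 0.99, the points of GCLC, NQO1 and GCLM lie inside the threshold, and KEAP1 lies at -0.35.

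NFE2L2 (ENSG00000116044, chr2:177218667-177392756 of GRCh38, minus strand) encodes NRF2. Its level, in CPM scaled by the trimmed mean of M values (TMM), was 167, 156, 167 and 162 in ethanol replicates 1 to 4 and 304, 293, 316 and 300 in O/A replicates 1 to 4. Every O/A library was thus far above every ethanol library, and the spread within a condition was small. Its log2(FC) was 0.89 (95% interval 0.84 to 0.95), a 1.86-fold rise, with an adjusted p of 3.37e-31 in edgeR. Of all genes tested, 3.30% had a log2(FC) at least as large. The annotated gene overlaps HNRNPA3 on the opposite strand by 5293 bases, where reads cannot be assigned with certainty because the sources used here do not say whether counting used strand. HNRNPA3 held 10853 to 13332 counts per library over its whole length, or 279% of the NFE2L2 counts, and had a log2(FC) of 0.16.

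KEAP1 (ENSG00000079999, chr19:10486125-10503558, minus strand), the adaptor that brings NRF2 to the CUL3 ligase, moved the other way. Its TMM-scaled CPM was 37.1, 38.5, 38.7 and 38.8 in ethanol and 29.3, 29.0, 30.2 and 31.6 in O/A. All O/A libraries lay below all ethanol libraries. KEAP1 had a log2(FC) of -0.35 (95% interval -0.45 to -0.25), or 0.784 of the ethanol level, with an adjusted p of 2.99e-08 in edgeR.

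Since both transcripts were measured in the same libraries, their ratio does not depend on library size. The ratio of NFE2L2 to KEAP1 in FPKM, which is scaled to annotated exonic length, was 1.08, 0.964, 1.03 and 0.996 in ethanol and 2.47, 2.41, 2.50 and 2.26 in O/A. The lengths, 14975 bases for NFE2L2 and 3573 for KEAP1, set the level of the ratio but not its fold difference. The mean ratio was 1.02 ± 0.0481 (SD, n = 4) in ethanol and 2.41 ± 0.104 (SD, n = 4) in O/A, a 2.37-fold difference. The exact two-sided permutation test gave p = 0.0286, the smallest that 4 libraries against 4 allow, and 0.0429 with Benjamini-Hochberg adjustment over the 3 ratios computed. The same test applied to the levels of single members also gave 0.0286 for the 8 genes whose conditions did not overlap.

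TXNRD1 (ENSG00000198431, chr12:104215779-104350307, plus strand) encodes the cytosolic thioredoxin reductase, which uses NADPH to reduce thioredoxin. Its TMM-scaled CPM was 250, 260, 248 and 246 in ethanol and 505, 476, 485 and 485 in O/A. The conditions were far apart and each varied little. The log2(FC) was 0.96 (95% interval 0.91 to 1.01), a 1.94-fold rise with an adjusted p of 2.69e-34 in edgeR, the smallest of the 10 genes. A processed pseudogene, RPL18AP3, lies inside TXNRD1 on the same strand and held 894 to 1096 counts per library, or 14.6% of the TXNRD1 counts, with a log2(FC) of 0.08.

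TXN (ENSG00000136810, chr9:110243810-110256507, minus strand) encodes thioredoxin, the substrate of that reductase. Its TMM-scaled CPM was 185, 201, 191 and 181 in ethanol and 195, 199, 185 and 199 in O/A. The conditions overlapped. The log2(FC) was 0.04 (95% interval -0.03 to 0.10, adjusted p = 0.348 in edgeR), and it turned to between -0.033 and -0.010 in 3 of 16 alternative analyses.

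The ratio of TXNRD1 to TXN in FPKM was 0.203, 0.194, 0.195 and 0.205 in ethanol and 0.390, 0.360, 0.394 and 0.368 in O/A. In FPKM the transcript of the reductase thus stood at 0.199 ± 0.00538 (SD, n = 4) of that of its substrate in ethanol and at 0.378 ± 0.0167 (SD, n = 4) in O/A. This was a 1.90-fold difference (exact permutation p = 0.0286, adjusted p = 0.0429 over 3 ratios). The annotated lengths, 6710 bases for TXNRD1 and 1010 for TXN, set the level of the ratio but not its fold difference. Without length scaling TXNRD1 was above TXN, at a mean TMM-scaled CPM of 251 against 190 in ethanol and 488 against 194 in O/A.

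SRXN1 (ENSG00000271303, chr20:646615-653200, minus strand) encodes sulfiredoxin, which restores over-oxidized peroxiredoxins at the cost of ATP. It was among the lowest members, with 66 to 86 counts in ethanol against 72 to 111 in O/A. Its TMM-scaled CPM was 4.63, 3.87, 3.76 and 3.39 in ethanol and 6.38, 4.74, 5.82 and 4.14 in O/A. O/A replicates 1, 2 and 3 lay above every ethanol library, replicate 2 only narrowly, and O/A replicate 4 lay within the ethanol range. The log2(FC) was 0.43 (95% interval 0.16 to 0.71, adjusted p = 0.00632 in edgeR), whereas the exact permutation test of the levels gave p = 0.0571. The call rested on O/A replicate 1, without which the log2(FC) was 0.33 with an adjusted p of 0.0511 from the same edgeR test.

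**Figure D2:**
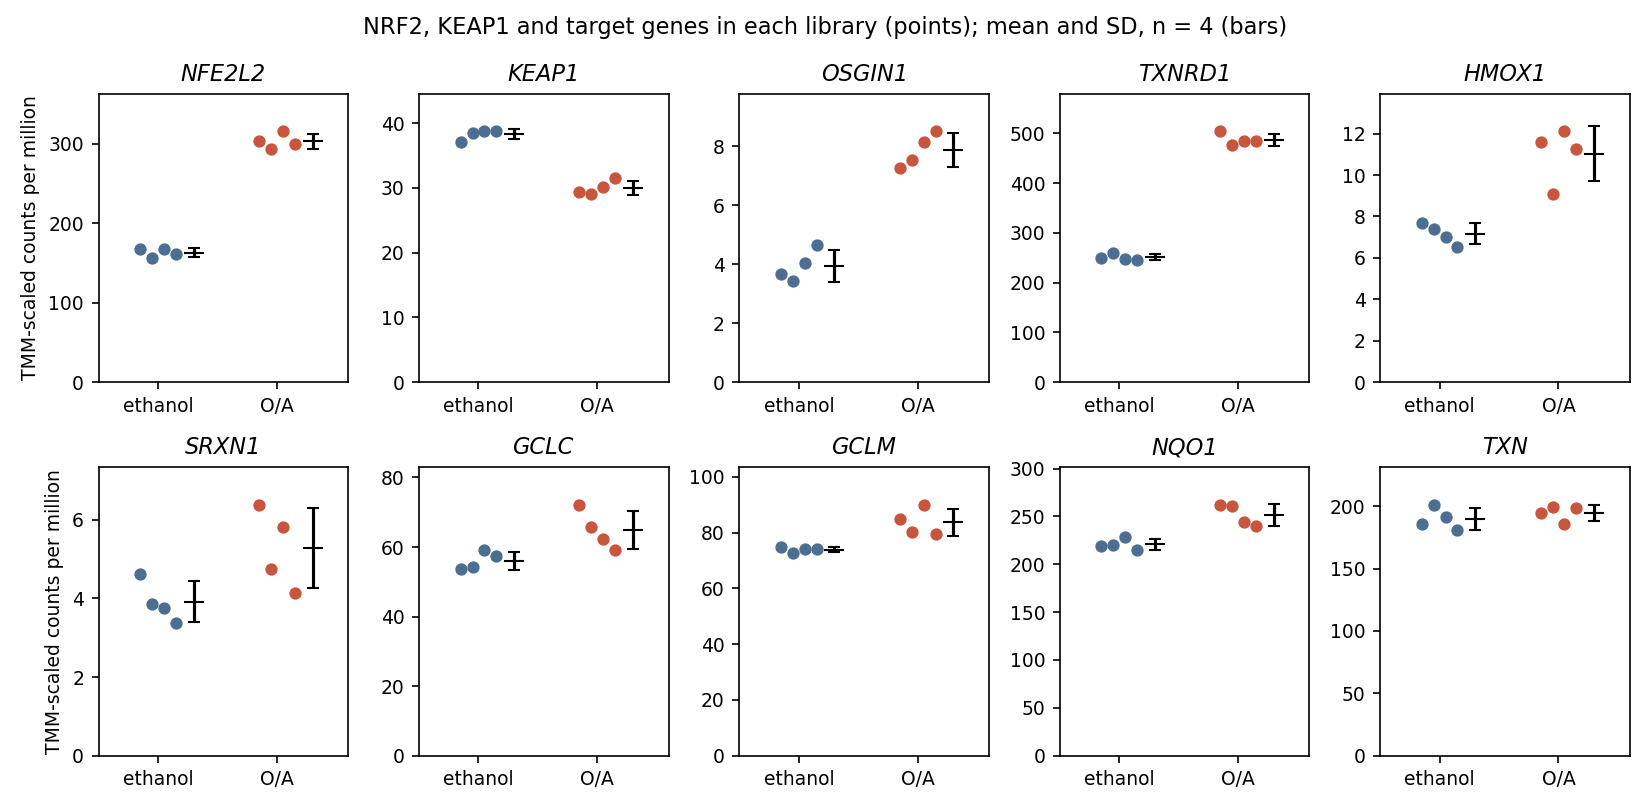
TMM-scaled CPM (vertical axes, each starting at 0) of the 10 genes in the 4 ethanol libraries (blue points) and the 4 O/A libraries (red points), in order of replicate number, with the mean and SD as black bars. The points of the conditions overlap for SRXN1 and TXN and are apart for the other 8 genes, narrowly so for GCLC.

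GCLC and GCLM encode the catalytic and the modifier subunit of glutamate-cysteine ligase, which makes the first and rate-limiting intermediate of glutathione. GCLC (ENSG00000001084, chr6:53497341-53616970, minus strand) had a TMM-scaled CPM of 53.6, 54.3, 59.1 and 57.5 in ethanol and 72.2, 65.8, 62.3 and 59.2 in O/A. O/A replicate 4 was barely above the highest ethanol library, and O/A replicate 1 was well above it. The log2(FC) of GCLC was 0.21 (95% interval 0.11 to 0.31), with an adjusted p of 0.000486 in edgeR and a value inside the fold change threshold.

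GCLM (ENSG00000023909, chr1:93885199-93909456, minus strand) had a TMM-scaled CPM of 74.7, 72.7, 73.9 and 74.1 in ethanol and 85.0, 80.3, 90.0 and 79.5 in O/A. The ethanol libraries were nearly alike and all O/A libraries were above them. The log2(FC) of GCLM was 0.18 (95% interval 0.10 to 0.26, adjusted p = 6.74e-05 in edgeR), also inside the threshold. Set beside the promoter matches, the log2(FC) was 0.18 for GCLM, 0.96 for TXNRD1 and -0.35 for KEAP1, which shares 9 letters with GCLM.

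No difference in the proportion of the subunits was detectable. The ratio of GCLM to GCLC in FPKM was 2.22, 2.13, 1.99 and 2.05 in ethanol and 1.87, 1.94, 2.29 and 2.13 in O/A, and the conditions overlapped. The difference of the mean log2 ratio was -0.03 (exact permutation p = 0.743, adjusted p = 0.743 over 3 ratios), and without O/A replicate 1 it was 0.016.

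**Figure D3:**
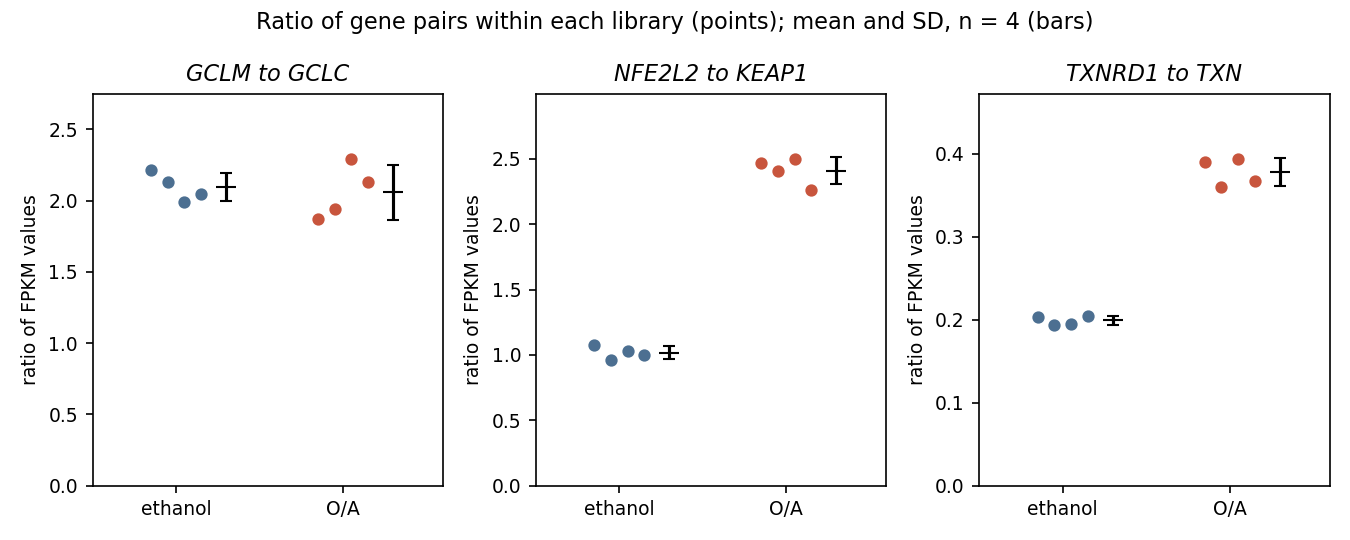
Ratio of FPKM values within each library (vertical axes, each starting at 0) for GCLM to GCLC, NFE2L2 to KEAP1 and TXNRD1 to TXN, with 4 ethanol (blue) and 4 O/A (red) libraries in order of replicate number and the mean and SD as black bars. The O/A libraries lie above the ethanol libraries for NFE2L2 to KEAP1 (2.41 against 1.02) and TXNRD1 to TXN (0.378 against 0.199) and overlap with them for GCLM to GCLC.

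HMOX1 (ENSG00000100292, chr22:35380361-35394214, plus strand) encodes haem oxygenase 1, the inducible enzyme that opens haem to biliverdin, iron and carbon monoxide. Its TMM-scaled CPM was 7.70, 7.40, 7.01 and 6.54 in ethanol and 11.6, 9.11, 12.1 and 11.3 in O/A. O/A replicate 2 was the lowest of its condition and still above every ethanol library. For HMOX1 the log2(FC) was 0.62 (95% interval 0.43 to 0.82), a 1.54-fold rise with an adjusted p of 2.72e-07 in edgeR, on 123 to 143 counts in ethanol against 169 to 229 in O/A.

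NQO1 (ENSG00000181019, chr16:69706996-69726668, minus strand) encodes a quinone reductase that passes electrons in pairs and so avoids semiquinone radicals. Its TMM-scaled CPM was 220, 220, 228 and 215 in ethanol and 262, 261, 244 and 240 in O/A. All O/A libraries were above all ethanol libraries, by a small margin. The log2(FC) was 0.19 (95% interval 0.13 to 0.25), with an adjusted p of 2.82e-07 in edgeR and a value inside the threshold, and it was 0.11 under quantile normalization.

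OSGIN1 (ENSG00000140961, chr16:83931311-83966332, plus strand) encodes an oxidative stress-induced growth inhibitor. Its TMM-scaled CPM was 3.66, 3.42, 4.04 and 4.65 in ethanol and 7.25, 7.54, 8.15 and 8.51 in O/A. The lowest O/A library was well above the highest ethanol library. Its log2(FC) was 0.99 (95% interval 0.75 to 1.22), a 1.98-fold rise with an adjusted p of 4.59e-10 in edgeR, the largest of the members and, with 61 to 99 counts in ethanol against 126 to 154 in O/A, one of the less precise. On log2(FPKM + 1), which understates changes of low genes, the value was 0.48. Of all genes tested, 2.71% had a log2(FC) at least as large. MLYCD overlaps OSGIN1 on the same strand and held 14 to 30 counts per library, or 21.0% of the OSGIN1 counts. MLYCD had a log2(FC) of -0.29 (adjusted p = 0.357 in edgeR).

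Compared per length, in FPKM, TXN was the most abundant member in ethanol at 191 ± 9.07 (SD, n = 4), followed by NQO1 at 75.4 ± 2.16, TXNRD1 at 38.0 ± 0.888, GCLM at 13.8 ± 0.145, NFE2L2 at 11.05 ± 0.383, KEAP1 at 10.9 ± 0.260 and GCLC at 6.61 ± 0.329. The lowest were HMOX1 at 3.15 ± 0.217, SRXN1 at 1.57 ± 0.204 and OSGIN1 at 0.720 ± 0.0997. Neighbours in this order did not overlap between libraries except NFE2L2 and KEAP1. The order depends on the annotated exonic length, which was 14975 bases for NFE2L2, 5426 for GCLM and 3573 for KEAP1. Without length scaling NFE2L2 was the highest of these genes in ethanol, at 163 TMM-scaled CPM against 73.9 for GCLM and 38.3 for KEAP1.

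In O/A the FPKM of TXN was 189 ± 6.47 (SD, n = 4), that of NQO1 83.3 ± 3.97 and that of TXNRD1 71.5 ± 1.70. Per length TXNRD1 thus came close to NQO1 without reaching it. Without length scaling TXNRD1 was above NQO1 in both conditions, at a mean TMM-scaled CPM of 251 against 221 in ethanol and 488 against 252 in O/A. In FPKM NFE2L2, at 19.9 ± 0.590, passed GCLM, at 15.2 ± 0.851, but in TMM-scaled CPM it was above GCLM in ethanol already. KEAP1, at 8.26 ± 0.296, overlapped with GCLC, at 7.40 ± 0.643, and HMOX1 (4.70 ± 0.554), SRXN1 (2.05 ± 0.393) and OSGIN1 (1.39 ± 0.0987) stayed the lowest. KEAP1 with GCLC was the only pair of neighbours that overlapped in O/A.

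The profile of NFE2L2 over the 8 libraries, as log2 TMM-scaled CPM, was compared with that of every gene tested. The highest Pearson correlations were those of CEBPG (r = 0.9992), a C/EBP family transcription factor with a log2(FC) of 1.82, RNF41 (r = 0.9991), a ubiquitin ligase with a log2(FC) of 1.06, and LMAN1 (r = 0.9991), a cargo receptor of the secretory pathway with a log2(FC) of 0.51. The 8 points share 2 conditions and the order is of little weight, since 330 genes had an r of at least 0.99. Among the members r with NFE2L2 was 0.993 for TXNRD1, 0.969 for OSGIN1, 0.937 for HMOX1, 0.896 for GCLM, 0.891 for NQO1, 0.770 for GCLC, 0.736 for SRXN1, 0.271 for TXN and -0.975 for KEAP1.

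Of 57 further genes of the pathway, in 7 lists written from general knowledge, 56 were tested, 16 were upregulated and 7 downregulated, with a median log2(FC) of 0.08, where 15.8% and 18.9% of all genes tested were called. The lists were chosen with earlier results of these data known, so these counts are not an independent comparison with all genes. They hold partners and competitors of NRF2 on DNA, regulators of its stability, further targets, and paralogs of the members. All CPM values given for the genes of these lists are TMM-scaled. Of 8 CNC factors and small MAF proteins 5 were upregulated and 1 was downregulated, with a median log2(FC) of 0.44.

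The small MAF proteins, which pair with NRF2 and lack a transactivation domain of their own, rose in 3 of 3 cases. Over all genes tested, 15.8% were upregulated. MAFF had a TMM-scaled CPM of 24.6 to 25.3 in ethanol against 78.3 to 86.4 in O/A, a 3.35-fold rise with a log2(FC) of 1.74 (adjusted p = 1.11e-35 in edgeR). MAFG was at 29.7 to 32.3 in ethanol against 84.2 to 89.1 in O/A, a 2.77-fold rise (log2(FC) 1.47, adjusted p = 1.96e-33 in edgeR). MAFK rose least of them, with a log2(FC) of 0.51 (adjusted p = 1.08e-13 in edgeR).

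BACH1, the haem-sensitive repressor that competes with NRF2 at targets such as HMOX1, also rose, from 83.8 to 90.4 CPM in ethanol to 140 to 145 in O/A (log2(FC) 0.72, adjusted p = 3.60e-25 in edgeR). Its relative BACH2, at a few CPM only, fell with a log2(FC) of -0.72 (adjusted p = 2.94e-05 in edgeR). NFE2L1, encoding the proteasome regulator NRF1, rose with a log2(FC) of 0.38, NFE2L3 had 0.19, inside the threshold, and NFE2, on 6 to 19 counts per library, had -0.63 with an adjusted p of 0.128 in edgeR. Without O/A replicate 2, which held 16 of the NFE2 counts, that value was -1.03 with an adjusted p of 0.0254.

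Of 8 regulators of NRF2 stability 2 rose and 1 fell, where 15.8% and 18.9% of all genes tested were called. Their median log2(FC) was -0.08. SQSTM1, encoding p62, the autophagy receptor that binds KEAP1 and is itself a target of NRF2, was at 194 to 203 CPM in ethanol against 426 to 467 in O/A, a 2.26-fold rise with an adjusted p of 3.61e-37 in edgeR. SYVN1, encoding the ER ubiquitin ligase HRD1, had a log2(FC) of 0.68 (adjusted p = 5.29e-18 in edgeR). BTRC, encoding the F-box protein of a KEAP1-independent route to NRF2 degradation, fell with a log2(FC) of -0.27, but was inside the threshold without O/A replicate 3 (-0.22) or replicate 4 (-0.25). The other 5, CUL3, RBX1, DPP3, PGAM5 and GSK3B, lay inside the threshold. Of these RBX1 (-0.13), PGAM5 (-0.21) and GSK3B (-0.10) were lower with an adjusted p of at most 0.05 in edgeR, and CUL3 and DPP3 did not pass. By the adjusted p alone 2 of the 8 regulators were higher and 4 lower, against 26.0% and 27.7% of all genes tested.

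Of 33 other target genes in 4 lists 32 were tested, and SLC40A1, at 0 to 3 counts, was not. Of the 32 tested, 6 rose and 4 fell, with a median log2(FC) of 0.09, shares near the 15.8% and 18.9% of all genes tested. SLC7A11, the cystine carrier that feeds glutathione synthesis and is known as a target of both NRF2 and ATF4, had the largest rise, from 45.8 to 54.8 CPM in ethanol to 287 to 299 in O/A, a 5.79-fold rise with an adjusted p of 1.08e-33 in edgeR. It was the only one of 4 thiol and cystine genes to be called, and GSR, PRDX1 and GPX2 had log2(FC) values between -0.05 and 0.14.

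Of the 6 genes of NADPH supply, 4 had an adjusted p of at most 0.05 in edgeR, ME1 higher and 3 lower, all inside the fold change threshold. By the adjusted p alone 26.0% of all genes tested were higher and 27.7% lower (53.7% in all). Their log2(FC) lay between -0.08 for PGD, of the pentose phosphate pathway, and 0.20 for ME1, malic enzyme. Among 17 detoxification and efflux genes 4 rose and 3 fell, where 15.8% and 18.9% of all genes tested were called, and 9 did not pass the adjusted p. AKR1C1, an aldo-keto reductase, had a log2(FC) of 0.52 and UGDH, which makes UDP-glucuronate, 0.48. AKR1C1 is nearly identical to AKR1C2, and how reads were shared between them is uncertain.

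The falls in that list were of carbonyl reductases and TRIM16. CBR3 went from 42 to 50 counts in ethanol to 15 to 26 in O/A (log2(FC) -1.11, adjusted p = 1.31e-05 in edgeR), TRIM16, a stress-related ubiquitin ligase, had -0.59, and CBR1 -0.56. Of 5 tested haem and iron genes FTH1, the ferritin heavy chain, rose with a log2(FC) of 0.42, and its many processed pseudogenes make the share of its reads uncertain. ABCB6, a porphyrin transporter on 8 to 30 counts per library, had -0.70 (adjusted p = 0.0329 in edgeR). That call was lost without any of 4 libraries, ethanol replicates 1 and 4 and O/A replicates 1 and 2, with values of -0.54, -0.59, -0.54 and -0.70 and adjusted p values of 0.136, 0.104, 0.124 and 0.0557.

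**Figure D4:**
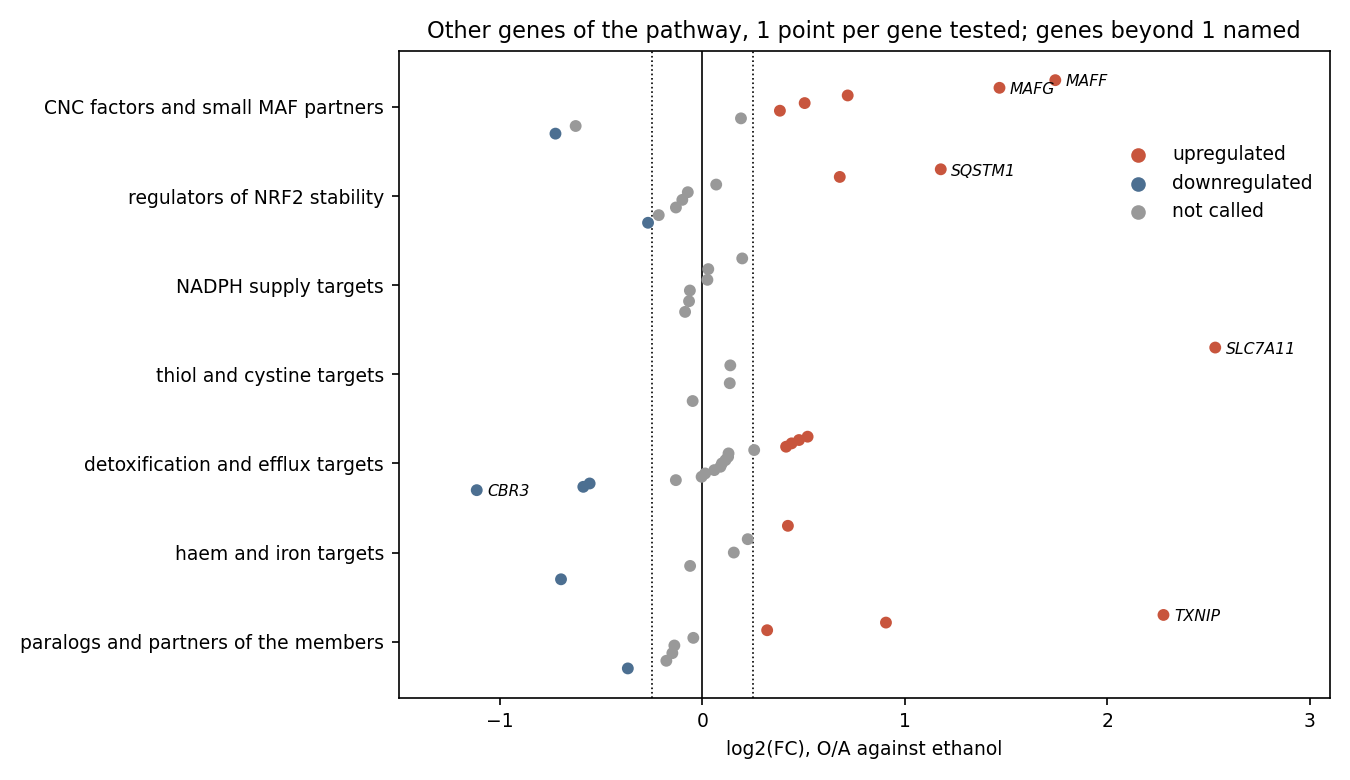
log2(FC), O/A against ethanol (horizontal axis), of the 56 tested pathway genes outside the 10, 1 point per gene in 7 lists (vertical axis), coloured by call, with dotted lines at 0.25 in either direction and names beside genes beyond 1. The points farthest to the right are SLC7A11 (2.53), TXNIP (2.28), MAFF (1.74), MAFG (1.47) and SQSTM1 (1.18), and the NADPH genes lie inside the threshold.

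Of 8 paralogs and partners of the members 3 rose and 1 fell, where 15.8% and 18.9% of all genes tested were called. Their median log2(FC) was -0.09. The constitutive haem oxygenase HMOX2, paralog of HMOX1, fell from 113 to 123 CPM in ethanol to 88.7 to 93.9 in O/A (log2(FC) -0.37, adjusted p = 1.84e-13 in edgeR). OSGIN2 rose like OSGIN1, with a log2(FC) of 0.91 (adjusted p = 1.09e-25 in edgeR), from 43.4 to 45.8 CPM to 80.8 to 87.1. NQO2 had 0.32 (adjusted p = 0.00101 in edgeR), on the called side of the threshold where NQO1 was not, and the difference between the 2 genes was not tested.

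Of the rest of the thioredoxin system, TXNIP rose and the paralogs of TXNRD1 did not pass the test. The mitochondrial reductase TXNRD2 had a log2(FC) of -0.15 and the thioredoxin-glutathione reductase TXNRD3 -0.18, with adjusted p values of 0.0684 and 0.0702 in edgeR, and the mitochondrial thioredoxin TXN2 had -0.14, inside the threshold. TXNIP, the arrestin-domain protein that binds and inhibits thioredoxin, rose from 172 to 186 CPM in ethanol to 841 to 914 in O/A, a 4.85-fold rise with an adjusted p of 9.89e-47 in edgeR. BLVRA, biliverdin reductase, had a log2(FC) of -0.04.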

How the data were processed

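mRNA of N/TERT cells was sequenced in 8 libraries, 4 ethanol and 4 O/A, grouped by the sample labels. The labels call them biological replicates and the study describes 4 independent experiments. Per the submitters' processing notes, HISAT2 2.0.1, HTSeq 0.6.1 and DESeq2 were used with GRCh38.p13. The authors deposited raw read counts per Ensembl gene and FPKM values, which equal count divided by exonic length and library total to within 0.005. The Ensembl release and strand setting are not given in the sources used here. The authors' own comparison, with fold changes and p-values, was deposited as well and was not used. The time of treatment came from the study. Some values are not reported here.

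Counts were tested with edgeR 4.0.16 in R 4.3.3 (TMM scaling, robust quasi-likelihood test, condition only) for the 14893 genes that reached 10 counts in 4 or more libraries, with Benjamini-Hochberg adjustment over all of them. The 95% interval is from the same fit. The tests were tested on simulated data. The members and lists were chosen with earlier results of these data known. The genes named are the 10 members, the 2 largest called rises and falls of each list, all CNC and MAF genes and paralogs, and the 3 genes most like NFE2L2 in profile. The 5 regulators without a call, the thiol and NADPH genes without a call, CBR1, AKR1C2 and the overlapping genes were named after their values were seen. Replicates were further apart than sampling noise allows (chi-square per degree of freedom 1.76 to 5.74), and none was a copy. Alternatives were DESeq2 1.42.0, other scalings and filters, limma 3.58.1 on log2 FPKM with a pseudocount of 0.1 or 1, a replicate block, leaving out each library in turn, and other fold change thresholds. For the log2(FC) of single pathway genes outside the members these were chosen after seeing the data. Promoter windows are from RefSeq, where 9 of 10 members had a window and HMOX1 had none.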

Additional observations from a re-analysis of the deposited data

Results flagged for a closer look

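In ethanol replicate 1 KEAP1 stood at 37.1 TMM-scaled CPM, below the other ethanol libraries at 38.5 to 38.8. The gap was 0.847 of the range of the 4 libraries, past the 95% limit of Dixon's test for a single distant sample. It was the only such case in 26 groups of 4 values examined for the members and their ratios, where chance gives about 1 in 20, or 1.3. Every O/A library stayed below it.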

How the results depend on the processing

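NFE2L2, TXNRD1, OSGIN1, HMOX1 and KEAP1 kept direction and call under every other test, scaling, filter, unit, block and left-out library that tested them, at the same thresholds, and NQO1, GCLC and GCLM stayed higher without a call. The call of SRXN1 was also lost on log2(FPKM + 1), at 0.24 (adjusted p = 0.0462 in limma). On that scale GCLC narrowly missed the adjusted p limit, at 0.0504 in limma. TXN turned to -0.033 under quantile normalization, -0.010 on log2(FPKM + 0.1) and -0.010 on log2(FPKM + 1). With a mean FPKM of at least 5, 2183 of 6797 genes were called, 2 of 7 members rose, with HMOX1, SRXN1 and OSGIN1 no longer tested, and 12 of 37 pathway genes rose and 3 fell. By adjusted p alone 7999 genes were called, 8 members were higher, NQO1, GCLC and GCLM among them, and 22 pathway genes were higher and 14 lower. Beyond an absolute log2(FC) of 1, 797 genes were called, 0 members rose and 0 fell (8 and 1 by adjusted p alone in edgeR), and 5 pathway genes rose and 1 fell.

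The replicate number did not pair libraries (correlations of -0.0281 to 0.0744), and with it as a block 5160 genes were called in place of 5165, with the counts of members unchanged. With the ratios paired by number, where the smallest exact p is 0.125, those of NFE2L2 to KEAP1 (1.25) and TXNRD1 to TXN (0.92) had an adjusted permutation p of 0.188. Leaving out each library gave -0.082 to 0.016 for GCLM to GCLC on the log2 scale. The other calls lost were of BACH2 (-0.19), AKR1C2 (0.16) and NQO2 (0.22) on log2(FPKM + 1), and of ABCB6 with DESeq2 (-0.69), no filter (-0.70) and log2(FPKM + 1) (-0.11). The cause was not tested. Members with few counts, SRXN1, OSGIN1 and HMOX1, have the widest intervals.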
